A study of Homo sapiens with 9 samples.

Results

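The baseline transcriptome described here is that of 3 control libraries, out of 9 in the series, of H1975, an established human lung adenocarcinoma line with a mutant epidermal growth factor receptor. The cells carried dCas9-KRAB, a nuclease-dead Cas9 fused to a transcriptional repressor domain, under a doxycycline-inducible promoter (TRE), together with a non-targeting guide RNA (NTgRNA). All cells of the series were grown with G418, puromycin and tetracycline-free serum and received doxycycline at 4 µg/ml for 72 h. The drug that induces the repressor was thus also given to the controls and was present in every library. Expression of the repressor itself was not measured here. The other 6 libraries hold guides gRNA1 or gRNA2 against the long noncoding RNA TRIDENT and were not used. The labels do not say whether the 3 libraries came from separate cultures, so the spread given here may be technical. No contrast was made and no test was run: values are mean ± SD over n = 3 libraries, or the values of control replicates 1, 2 and 3 in that order.

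RNA was total RNA after removal of ribosomal RNA, read by short-read sequencing. Levels are TPM, the reads of a transcript divided by its length and scaled to the same total in every library, summed over the transcripts of a gene. The tables hold 19140677, 25178932 and 22393085 estimated reads. A gene was called detected when it reached 1 TPM in all 3 libraries. By that rule 11760 of 19795 protein-coding genes (59.4%) and 2230 of 14842 long noncoding RNA genes (15%) were detected, and the counts of the gene groups below are to be read against these shares. A mean of 10 TPM was reached by 7623 protein-coding genes, a mean of 100 TPM by 680 and a mean of 1000 TPM by 47. For 3273 protein-coding genes no read was assigned in any library. A value of 0 allows up to 3 reads in a library, for counting error only. Low TPM values often rest on few reads, and for short RNAs values above 1 TPM can do so too.

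The classes of RNA took very different shares of TPM and of reads. Protein-coding genes held 46.0% ± 0.984 of TPM but 79.4% ± 0.146 of reads, and small and structural RNAs held 34.9% ± 1.13 of TPM with 4.00% ± 0.240 of reads. Long noncoding RNAs held 8.39% ± 0.292 of TPM and mitochondrial genes 8.20% ± 0.357. By annotation the long noncoding class includes AL139099.4, of 300 bases, at 23389 ± 1873 TPM, which lies at the locus of the structural RNA RN7SL1. An entry of the structural RNA RMRP, of 268 bases at 500 ± 223 TPM, is also in this class. A TPM of a messenger RNA is therefore a level within this whole mixture. Rescaling to protein-coding genes, those of the mitochondrial genome included, raised every such level by 1.82 to 1.90 times. The share of 46.0% leaves out the mitochondrial coding genes, which are counted in the mitochondrial class. Within the protein-coding genes, 73.4% of TPM lay on transcripts annotated as protein_coding, 13.2% on retained_intron, 9.15% on processed_transcript and 4.05% on nonsense_mediated_decay transcripts. Where a coding gene of 1 TPM or more fell by more than 1.5 times when only its protein_coding transcripts were summed, that second value is given as its coding-transcript level. The 3 libraries differed little: the median coefficient of variation was 10.1% for protein-coding genes between 1 and 10 TPM, 5.92% between 10 and 100 TPM and 3.49% above 100 TPM.

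**Figure D1:**
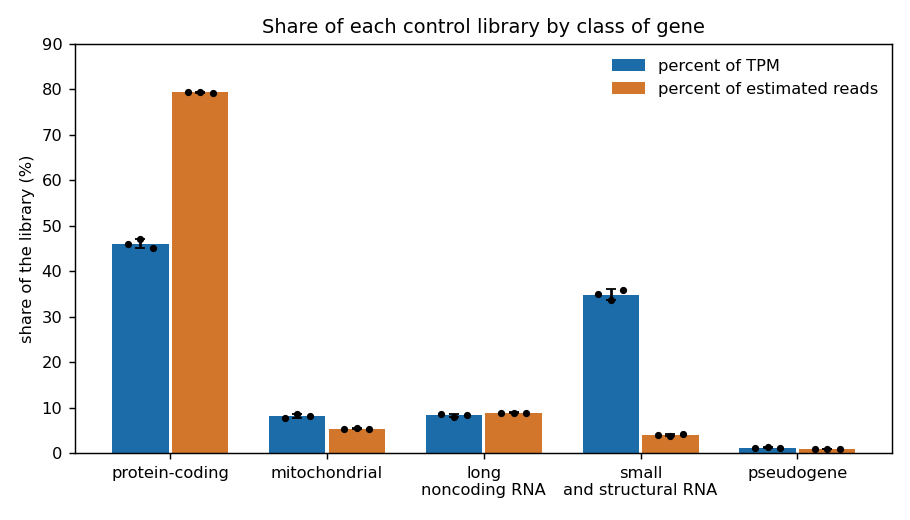
Share (%) of TPM (blue) and of estimated reads (orange) held by 5 classes of gene; bars are means, error bars SD and points the 3 control libraries. Protein-coding genes hold 46.0% of TPM and 79.4% of reads, and small and structural RNAs 34.9% and 4.00%.

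H1975 cells descend from lung epithelium, and 3 features of such a tumour cell can be read from its RNA. Lineage factors and structural genes tell which epithelial program is kept, receptors and their ligands tell which growth signals can be received, and isozymes and splice forms tell how sugar is handled. Pyruvate kinase is a textbook case, because its gene PKM makes alternative proteins from mutually exclusive exons. The adhesion receptor CD44 likewise gains an extracellular stretch when its variable exons are included, as epithelial cells tend to do.

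The sequences that separate these splice forms are printed here because the isoform levels rest on them. They were read from the GENCODE 29 transcripts (GRCh38), 5′ to 3′ in the sense of the gene. The exons of PKM that give the M1 and M2 enzymes both have 167 bases, lie at chr15:72203022-72203188 and chr15:72202454-72202620 on the minus strand, and differ at 62 positions, which are in capitals.
PKM M1 exon: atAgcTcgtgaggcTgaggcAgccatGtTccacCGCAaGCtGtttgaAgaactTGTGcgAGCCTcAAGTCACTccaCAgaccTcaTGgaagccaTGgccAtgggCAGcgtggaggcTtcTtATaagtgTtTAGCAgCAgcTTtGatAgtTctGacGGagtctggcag
PKM M2 exon: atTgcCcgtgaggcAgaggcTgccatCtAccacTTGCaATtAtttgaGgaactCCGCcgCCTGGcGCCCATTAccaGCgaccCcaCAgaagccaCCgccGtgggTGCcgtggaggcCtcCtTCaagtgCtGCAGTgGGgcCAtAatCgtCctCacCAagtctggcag
The variable exons v8, v9 and v10 of CD44 lie at chr11:35208105-35208206, chr11:35209965-35210054 and chr11:35211246-35211449 on the plus strand.
CD44 v8: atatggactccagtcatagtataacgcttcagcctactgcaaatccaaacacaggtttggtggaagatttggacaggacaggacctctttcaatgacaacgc
CD44 v9: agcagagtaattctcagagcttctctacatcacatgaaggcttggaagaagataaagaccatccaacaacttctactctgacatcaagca
CD44 v10: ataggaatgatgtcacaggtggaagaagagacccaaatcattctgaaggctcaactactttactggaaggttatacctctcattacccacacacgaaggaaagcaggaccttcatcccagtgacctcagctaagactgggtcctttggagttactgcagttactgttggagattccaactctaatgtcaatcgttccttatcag

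Pyruvate kinase, which makes pyruvate in the last step of glycolysis, was mostly of the M2 form. The 6 transcripts holding the M2 exon summed to 295, 303 and 279 TPM in the 3 libraries, against 24.3, 21.8 and 22.2 TPM for the 8 transcripts with the M1 exon. The M2 exon thus accounted for 92.8% ± 0.467 of both together, and the lowest M2 library lay far above the highest M1 library. PKM as a gene reached 498 ± 7.60 TPM, the rest being on transcripts that hold neither exon whole, of which the largest was PKM-208, a retained_intron transcript at 68.7 ± 9.40 TPM.

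CD44, a receptor for hyaluronan, had 750.2 ± 48.1 TPM as a gene. Its transcript CD44-209, with exons v8 to v10, stood at 45.0, 53.3 and 50.2 TPM. The standard transcript CD44-201, which lacks all variable exons, stood at 19.6, 22.3 and 23.1 TPM. CD44-209 was the higher in each library, by 2.29 ± 0.109 times. The 3 transcripts that hold v8 to v10 whole, CD44-209 among them, summed to 89.1, 100.4 and 91.9 TPM. Most of the TPM of CD44 were on other transcripts, the largest being CD44-218 of 705 bases at 75.7 ± 12.1 TPM.

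**Figure D2:**
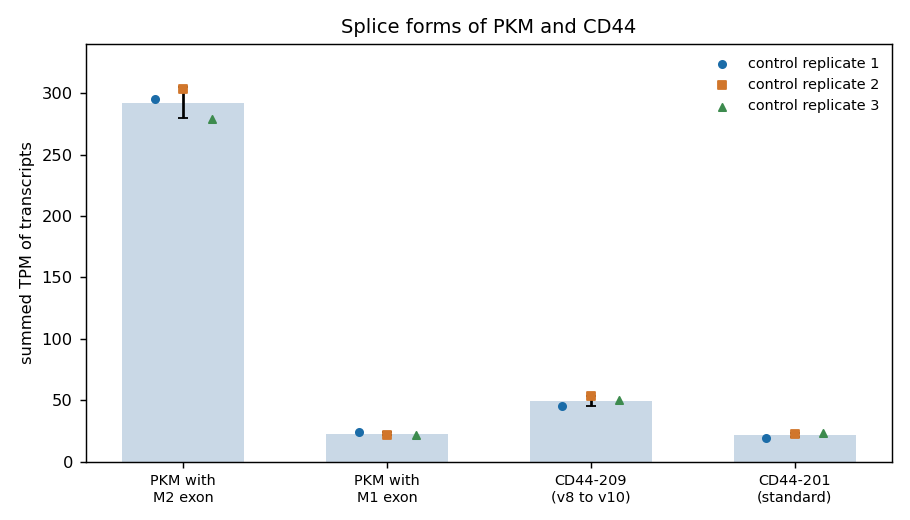
Summed TPM of transcripts holding each form of PKM, and TPM of 1 transcript for each form of CD44; bars are means, error bars SD and symbols the 3 control libraries. M2 stands at 292 and M1 at 22.7 TPM, CD44-209 at 49.5 and CD44-201 at 21.6 TPM.

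Among lineage factors, the lung and thyroid regulator NKX2-1 (GRCh38, GENCODE 29: chr14:36516392-36521149, minus strand) was present at 36.6, 40.3 and 37.2 TPM, with little spread between libraries. In all, 22 of 39 lineage transcription factors of lung and gut were detected. The highest were ID1, an inhibitor of basic helix-loop-helix factors, at 127 ± 8.29 TPM, the epithelial activator TFAP2A at 46.03 ± 3.18 TPM (18.6 TPM on coding transcripts), ID2 at 45.8 ± 4.01 TPM and the epithelial factor ELF3 at 39.8 ± 1.66 TPM (12.3 TPM on coding transcripts). TFAP2A and ID2 overlapped in their ranges. FOXA2, a partner of NKX2-1 in lung epithelium, was at 5.92 ± 0.447 TPM, while its relative FOXA1 had 0.358 TPM. SOX9, of the distal lung bud and many tumours, stood at 15.3 ± 0.824 TPM, and the proximal airway factor SOX2 at 0.385 TPM. The gut regulators CDX2 and PDX1 and the neuroendocrine factors NEUROD1 and INSM1 had no reads, and HNF4A had 0.0463 TPM.

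The alveolar type 2 program downstream of NKX2-1 was mostly not detected. Surfactant protein genes SFTPC and SFTPA1 and the protease gene PGC had no reads in any library, SFTPB had 0.612, 0.559 and 0.144 TPM, and SFTPA2 and SFTPD had 0.00680 and 0.0111 TPM. Of the 12 markers of type 2 cells 4 were detected. LPCAT1, an enzyme of surfactant lipid synthesis that many other cells also make, was the highest at 121 ± 8.83 TPM, of which only 32.9 TPM were on coding transcripts. The factor ETV5 followed at 19.1 ± 2.46 TPM (12.5 on coding transcripts) and the lipid transporter ABCA3 at 9.96 ± 0.651 TPM. NAPSA, whose protein is a diagnostic marker of lung adenocarcinoma, had 1.79, 1.43 and 1.67 TPM, with 0.839 TPM on coding transcripts.

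Markers of alveolar type 1 cells were split. CAV1, the coat protein of caveolae, and GPRC5A, a retinoic acid-induced orphan receptor, stood at 148 ± 4.61 TPM and 117 ± 5.40 TPM. EMP2, a membrane protein, had 19.4 ± 0.967 TPM and RTKN2 3.29 ± 0.103 TPM. The water channels AQP4 and AQP5 had no reads, PDPN had 0.0203 TPM, and AGER, which encodes the receptor RAGE, had 0.885 TPM. AGER lies in the major histocompatibility region, where reads may also sit on listed transcripts that did not match GENCODE 29. Unmatched transcripts with exactly the length of one of its transcripts of at least 1500 bases carried 2.73 TPM, which would put AGER above 1 TPM if they were its own; a shared length does not show that. Both CAV1 and GPRC5A are also made by many cells other than type 1 cells.

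Few airway markers were detected. Of 12 club and mucous cell markers only SCGB3A2, a secretoglobin, was detected, at 22.8, 20.98 and 22.2 TPM, and 76.5% ± 3.12 of this lay on a processed_transcript of 549 bases, with 2.13 TPM on the coding transcript. SCGB1A1, SCGB3A1, BPIFA1 and TFF3 had no reads, and the mucins MUC5AC and MUC5B had 0.00153 and 0.0204 TPM. The anterior gradient gene AGR2 reached a mean of 1.13 TPM, but not 1 TPM in every library. Of 10 ciliated cell markers 3 were detected, CCDC78 at 3.96 ± 0.482 TPM (2.16 on coding transcripts), the dynein heavy chain DNAH5 at 3.94 ± 0.761 TPM (1.98 on coding transcripts) and CAPS at 3.55 ± 0.402 TPM, while the master regulator of ciliation FOXJ1 had 0.0299 TPM. Basal and squamous markers counted 2 of 10, the serpin SERPINB5 at 7.04 ± 1.61 TPM and KRT15 at 5.89 ± 0.679 TPM, and KRT15 had only 0.721 TPM on coding transcripts. TP63 stood at 0.596 TPM, and KRT5 had no reads. Of 12 neuroendocrine markers only UCHL1 was detected, at 3.65 ± 0.783 TPM and 0.521 TPM on coding transcripts, and CHGA, NCAM1, CALCA and GRP had none.

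Genes of epithelial structure, in contrast to these specialised programs, were nearly all detected. In all, 28 of 30 epithelial junction and identity genes were detected, 26 of them at a mean of 10 TPM or more. The adhesion molecule EPCAM stood at 353, 362 and 364 TPM, E-cadherin (CDH1) at 119, 122 and 109.6 TPM and P-cadherin (CDH3) at 166 ± 5.50 TPM. The matriptase inhibitor SPINT2 had 194 ± 10.2 TPM, and the tight junction proteins CLDN7 and CLDN4 had 192 ± 8.27 TPM and 173 ± 3.96 TPM. On coding transcripts EPCAM held 214, SPINT2 118 and CDH3 58.2 TPM. The splicing regulator of epithelial cells ESRP1 had 98.1 ± 4.78 TPM (63.2 on coding transcripts). The pair not detected was CLDN1 at 0.824 TPM and RAB25, a small GTPase of epithelial recycling, at 0.0894 TPM.

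Keratins, the intermediate filaments of epithelia, were detected in 9 of 18 cases, and the highest were those of simple epithelium. KRT7 had 793, 748 and 728 TPM, KRT19 had 345, 355 and 328 TPM, KRT8 had 275, 288 and 259 TPM and KRT18 had 218, 217 and 208 TPM. These 4 were separated from each other in every library, in that order. Next came KRT10, a keratin of the upper layers of stratified epithelium, at 45.3 ± 1.99 TPM and KRT80 at 25.8 ± 0.841 TPM. KRT15, of the basal layer, had 5.89 ± 0.679 TPM, and the hair keratins KRT81 and KRT86 had 4.98 ± 0.409 TPM and 3.63 ± 0.561 TPM. For KRT81 and KRT86, 52.4% and 44.8% of the 31-base words also occur in other genes, so reads may be split. KRT7 remained highest on coding transcripts, at 465 TPM. Of other keratins of stratified epithelium, KRT1, KRT5 and KRT6B had no reads, and KRT14, KRT16 and KRT17 had 0.0263, 0.356 and 0.105 TPM.

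Mesenchymal genes were present in part, at 9 of 22. The matrix protein SPARC stood at 94.2 ± 2.24 TPM (43.8 TPM on coding transcripts), the filament protein vimentin (VIM) at 70.7, 77.1 and 71.9 TPM, tenascin C (TNC) at 48.2 ± 4.95 TPM and fibronectin (FN1) at 21.1 ± 0.914 TPM (13.9 on coding transcripts). Among the repressors that silence E-cadherin, SNAI1 had 9.60 ± 0.942 TPM and SNAI2 1.88 ± 0.422 TPM, whereas ZEB1 and ZEB2 stood at 0.679 and 0.184 TPM and TWIST1 and TWIST2 had no reads. N-cadherin (CDH2) was at 0.0338 TPM. VIM was thus below CDH1 in all 3 libraries.

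Markers of cells that a culture of a cancer line should not hold were low. Of 18 markers of blood, endothelial, stromal and other cells, 4 were detected, and the whole list summed to 52.0, 54.3 and 47.8 TPM. CD68, a lysosomal protein that is not restricted to macrophages, made up most of it at 41.7 ± 2.67 TPM, and 81.2% of its 31-base words also occur in transcripts of other genes. LYZ had 3.50 ± 0.328 TPM, DCN 1.96 ± 0.00982 TPM and PTPRC, which encodes the leukocyte antigen CD45, 1.48 ± 0.148 TPM, nearly all on a transcript of 1338 bases. CD3E, HBB, ALAS2, LUM and ALB had no reads.

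**Figure D3:**
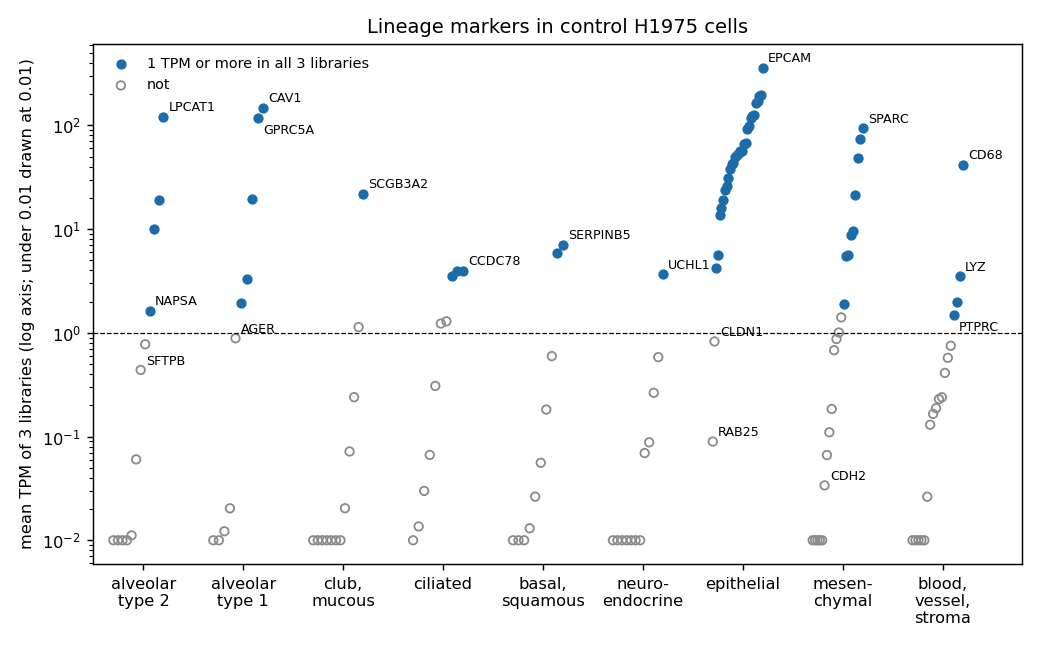
Mean TPM over 3 control libraries (log axis) of each member of 9 marker lists; filled points reached 1 TPM in all 3 libraries, open points did not, and values under 0.01 are drawn at 0.01. 28 of 30 epithelial genes are filled, against 4 of 12 alveolar type 2, 1 of 12 club and mucous and 1 of 12 neuroendocrine markers.

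Receptor tyrosine kinases bind growth factors outside the cell and signal through phosphorylation inside it. Of these, 26 of 58 were detected, or 44.8%, which is below the 59.4% of all protein-coding genes. MET, the receptor for hepatocyte growth factor (chr7:116672390-116798386, plus strand), was the highest at 122, 128 and 117 TPM. EGFR (chr7:55019021-55211628, plus strand) followed at 91.1, 96.9 and 83.01 TPM, and its ranges were separated from those of MET. Its partners ERBB3 and ERBB2 stood at 83.8, 71.9 and 67.3 TPM and 60.1, 58.5 and 59.9 TPM. The ranges of EGFR and ERBB3 overlapped, while ERBB3 lay above ERBB2 in every library. On coding transcripts ERBB2 lay above ERBB3, with MET at 119.8, EGFR at 68.8, ERBB2 at 46.5 and ERBB3 at 29.1 TPM.

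Within the EGFR family, EGFR took 40.3% ± 2.05 of the summed TPM, ERBB3 33.1% ± 2.22 and ERBB2 26.6% ± 1.64, and ERBB4 had no reads. With coding transcripts alone the shares were 47.6%, 20.1% and 32.2%. The transcript EGFR-201, of 9821 bases, was the main form at 35.8 ± 1.86 TPM. For ERBB3, the nonsense_mediated_decay transcript ERBB3-216 (13.4 ± 4.99 TPM) and the retained_intron transcript ERBB3-205 (10.4 ± 1.36 TPM) stood beside the full-length ERBB3-201 at 19.97 ± 1.30 TPM.

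Further receptors of this class with more than 50 TPM were MST1R, the receptor for macrophage-stimulating protein, at 57.96 ± 1.02 TPM, the ephrin receptor EPHB4 at 54.9 ± 1.52 TPM and the Wnt co-receptor RYK at 52.7 ± 2.20 TPM. MST1R fell to 13.5 TPM on coding transcripts, EPHB4 to 31.02 and RYK to 27.5. The insulin-like growth factor receptor IGF1R had 23.7 ± 1.75 TPM (11.5 on coding transcripts) and the insulin receptor INSR 15.96 ± 1.28 TPM. Among the fibroblast growth factor receptors FGFR1 had 5.86, 9.51 and 9.56 TPM (4.16 on coding transcripts), FGFR4 4.87 ± 1.02 TPM and FGFR3 4.29 ± 0.275 TPM (2.08 on coding transcripts), with FGFR2 at 0.525 TPM. FGFR3 lay above FGFR4 in replicate 1 and below it in the other libraries. CSF1R, the receptor of macrophage colony-stimulating factor, which is best known from macrophages, was detected at 7.78, 8.24 and 7.35 TPM, with 3.54 ± 0.166 TPM on its full-length transcript. AXL, a kinase often linked to resistance to EGFR inhibitors, averaged 1.01 TPM and did not reach 1 TPM in every library. ALK and ROS1, which are rearranged in other lung cancers, had no reads, and RET had 0.0150 TPM.

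**Figure D4:**
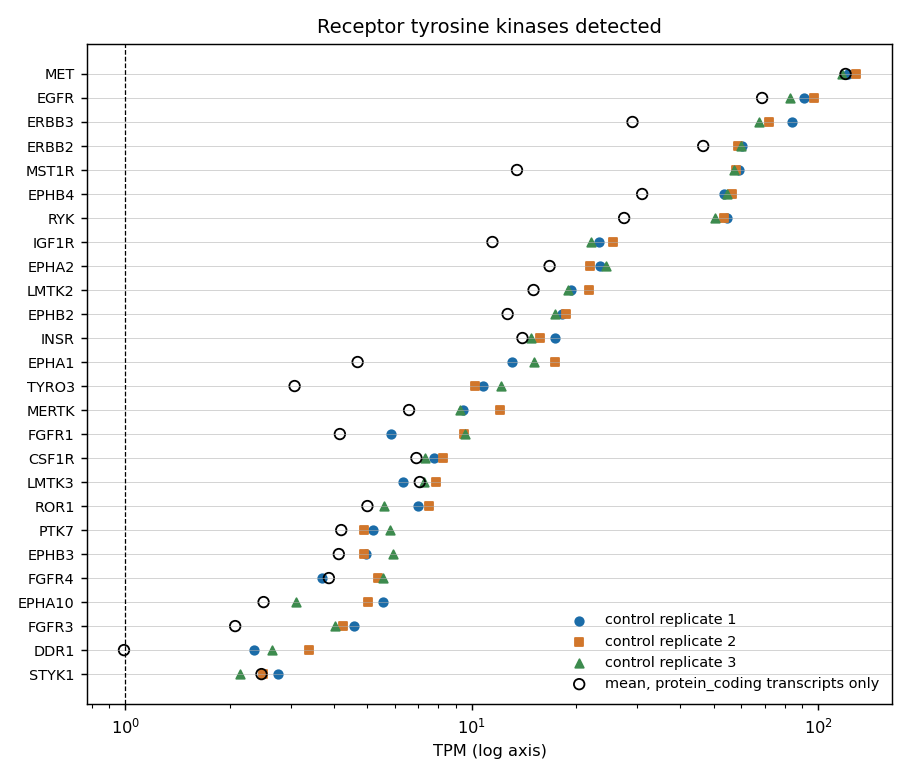
TPM (log axis) of the 26 receptor tyrosine kinases detected, with a symbol for each control library and an open circle for the mean over protein_coding transcripts alone; the dashed line is 1 TPM. MET is highest, and the open circles of MST1R, EPHA1 and TYRO3 lie far to the left of their library values.

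Ligands for these receptors were detected in 25 of 57 cases. VEGFB, an endothelial growth factor, was the highest at 48.4 ± 2.09 TPM (26.3 on coding transcripts), then PROS1, a ligand of the TYRO3, AXL and MERTK kinases, at 41.95 ± 1.28 TPM, the ephrin EFNA5 at 26.5 ± 1.87 TPM (14.01 on coding transcripts) and the macrophage factor CSF1 at 24.5 ± 1.02 TPM. Of the ligands of EGFR, AREG had 12.9, 14.1 and 13.2 TPM, TGFA 7.98 ± 0.0803 TPM, EREG 7.28 ± 0.426 TPM (4.77 on coding transcripts) and HBEGF 3.56 ± 0.360 TPM, and EGF itself 0.391 TPM. NRG1, a ligand of ERBB3, stood at 13.4 ± 1.32 TPM. The ligand of MET, HGF, had no reads. MST1, which encodes the ligand of MST1R, had 8.19 ± 0.841 TPM but 0.994 TPM on coding transcripts. Messages of both CSF1 and its receptor CSF1R were therefore present, and those of MET without HGF.

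Nuclear receptors, transcription factors that bind hormones and lipids, were detected in 25 of 48 cases. PPARG, a sensor of fatty acids, led at 47.04, 49.5 and 44.4 TPM, and RARG, a retinoic acid receptor, overlapped it at 41.7, 45.3 and 41.1 TPM. The glucocorticoid receptor NR3C1 had 33.9 ± 1.07 TPM, and the orphan receptors NR2F6 and NR2F2 had 30.9 ± 0.894 TPM and 30.7 ± 2.58 TPM. PPARG held 56.3% ± 0.136 of the TPM of its family, PPARA 26.1% ± 0.290 and PPARD 17.6% ± 0.388. On coding transcripts PPARD held 24.3% and PPARA 19.1%, so that this pair turned. RARG held 77.4% ± 0.725 of its family and RARA 22.6% ± 0.725, and RARB had no reads. The progesterone receptor PGR also had none, and the estrogen receptor ESR1 stood at 0.0334 TPM.

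Cytokine and interferon receptors were present in 25 of 40 cases. The highest were IL13RA1 at 64.4 ± 2.79 TPM, OSMR, the receptor for oncostatin M, at 42.3 ± 2.21 TPM, the interleukin 1 co-receptor IL1RAP at 38.4 ± 0.667 TPM and IL6ST, the shared gp130 chain, at 36.6 ± 6.02 TPM (22.04 on coding transcripts). OSMR, IL6ST and the LIF receptor LIFR (22.4 ± 1.54 TPM) belong to the same receptor group. IL6R, the specific chain for interleukin 6, had 4.26 ± 0.769 TPM. Tumour necrosis factor receptors counted 17 of 29, led by TNFRSF1A at 131 ± 1.64 TPM, the TWEAK receptor TNFRSF12A at 71.5 ± 1.20 TPM, the lymphotoxin receptor LTBR at 54.1 ± 2.23 TPM and the death receptor TNFRSF10B at 49.8 ± 2.09 TPM. On coding transcripts these 4 had 49.7, 44.2, 20.6 and 25.8 TPM.

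Receptors of the transforming growth factor beta family counted 9 of 14. The co-receptor endoglin (ENG), best known from endothelium, was highest at 55.5, 54.3 and 49.9 TPM, TGFBR1 had 27.7 ± 1.49 TPM and TGFBR2 15.9 ± 0.408 TPM, and BMPR2 and BMPR1A had 23.2 ± 1.83 TPM (15.2 on coding transcripts) and 19.4 ± 0.263 TPM (9.91 on coding transcripts). The endothelial receptor ACVRL1 was at 0.367 TPM. Of Notch, Wnt and hedgehog receptors and Notch ligands 15 of 27 were detected, with the Wnt co-receptor LRP5 at 32.6 ± 1.72 TPM, NOTCH2 at 31.9 ± 1.60 TPM, LGR4 at 29.5 ± 0.867 TPM and the hedgehog receptor PTCH1 at 22.4 ± 0.4998 TPM (12.8 on coding transcripts). NOTCH2 held 47.9% ± 1.77 of the Notch receptors, NOTCH3 31.02% ± 1.69 and NOTCH1 21.04% ± 1.91. SMO, the signalling partner of PTCH1, and the stem cell receptor LGR5 had no reads.

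G protein-coupled receptors were detected in 25 of 60 cases, or 41.7%. After GPRC5A came the adhesion receptor ADGRG6 at 64.6 ± 4.88 TPM (32.6 on coding transcripts), F2RL1, a receptor cleaved by trypsin-like proteases, at 39.8 ± 1.95 TPM and ADGRE5, known as CD97, at 34.4 ± 1.91 TPM. The adenosine receptor ADORA2B had 26.4 ± 1.91 TPM. The chemokine receptors CXCR4 and ACKR3 had no reads, and CCR7 had 0.00775 TPM.

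Among surface proteins that cancer drugs are directed against, 24 of 37 were detected. EPCAM (359.6 TPM) led, CDH3 (166 TPM) followed, and MET was also among the highest. CD276, known as B7-H3, had 48.02 ± 1.09 TPM (14.9 TPM on coding transcripts), and NECTIN4 had 14.7 ± 0.710 TPM. Antigens that other carcinomas carry were at both ends. MUC16 had 17.2 ± 1.25 TPM, TPBG 20.6 ± 1.68 TPM and MUC1 14.2 ± 0.878 TPM (8.45 on coding transcripts). Under 0.2 TPM were mesothelin (MSLN) at 0.0434, the folate receptor FOLR1 at 0.0937, CEACAM5 at 0.148 and claudin 18 (CLDN18) at 0.0502 TPM.

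Genes that restrain or engage immune cells were detected in 22 of 31 cases, or 71.0%. B2M, the invariant chain of class I antigen presentation, stood at 770.3, 789.9 and 787 TPM. The complement regulators CD46 and CD59 had 169.7 ± 7.35 TPM and 127 ± 1.67 TPM, with 53.01 TPM for CD46 on coding transcripts, and the phagocytosis signal CD47 had 114 ± 0.891 TPM. CD274, which encodes PD-L1, had 15.9, 18.4 and 15.5 TPM. PDCD1LG2, which encodes PD-L2, had 2.45 ± 0.415 TPM. The ligands ULBP2 and ULBP3 of the killer cell receptor NKG2D had 6.47 ± 0.264 TPM and 3.42 ± 0.451 TPM, and MICA was listed at 0, a gene of the histocompatibility region with the same limit as AGER and 0.636 TPM on unmatched transcripts of its length. CD80 had no reads and CD86 0.00435 TPM.

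Integrins, which anchor cells to matrix, were detected in 19 of 26 cases. The laminin-binding chain ITGA3 was highest at 304, 303 and 261 TPM, followed by the common beta chain ITGB1 at 195, 181 and 165 TPM, with no overlap. ITGA6, also a laminin receptor, had 62.6 ± 1.53 TPM and ITGAV 41.2 ± 0.657 TPM. ITGA3 had 104 TPM on coding transcripts, below ITGB1 at 147 TPM, so the order of this pair turned. ITGAE, ITGAL and ITGAD, integrin chains of leukocytes, reached 1 TPM through transcripts not annotated as protein_coding. ITGAE had 19.9 ± 0.707 TPM but 0.0458 TPM on coding transcripts, and ITGAL and ITGAD had 1.83 and 1.501 against 0.194 and 0.00302 TPM. This did not hold for ITGB2, the beta chain of leukocyte integrins, at 3.21 ± 0.496 TPM with 3.16 TPM on coding transcripts. ITGAX, also of leukocytes, had 2.30 TPM, with 0.999 TPM on coding transcripts. On coding transcripts alone 11 of 26 integrins were detected. Tetraspanins, organisers of membrane domains, counted 18 of 33, with CD63 at 322 ± 5.42 TPM, CD9 at 160.1 ± 7.26 TPM, CD151 at 103, 90.4 and 73.5 TPM (48.3 on coding transcripts) and TSPAN3 at 82.97 ± 4.999 TPM.

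Cytokines and chemokines had the lowest share detected of the secreted groups, with 12 of 50 detected, or 24.0%. IL18, of the interleukin 1 family, had 38.9, 43.3 and 44.9 TPM, CSF1 had 23.8, 24.2 and 25.7 TPM, CLCF1 had 13.5 ± 0.908 TPM and LIF had 12.1 ± 0.327 TPM. CCL5, a chemokine for T cells, stood at 9.44 ± 1.09 TPM. IL6, IL1B and CXCL8, mediators of inflammation, had 0.851, 0.748 and 0.599 TPM, and CXCL1, CXCL10, CXCL12 and CSF3 had no reads. LIF and both chains of its receptor, LIFR and IL6ST, were thus all detected.

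Matrix proteins were detected in 32 of 48 cases. The adhesion protein TGFBI, induced by transforming growth factor beta, was highest at 459, 495 and 466 TPM. LAMB2 and LAMC1, chains of laminin, the main protein of basement membranes, had 135 ± 9.09 TPM (29.99 on coding transcripts) and 122 ± 6.87 TPM (57.03 on coding transcripts), and CCN1 had 106 ± 4.91 TPM. The choice of transcripts changed which laminin chains led. Over all transcripts LAMA5 held 57.1% ± 0.975 of the alpha chains and LAMB2 68.2% ± 0.875 of the beta chains. On coding transcripts LAMA3 held 68.6% and LAMB3 66.5%. Fibrillar collagen COL3A1 had no reads, COL1A1 had 8.84 ± 0.373 TPM (4.47 on coding transcripts), and the basement membrane collagens COL4A1 and COL4A2 had 0.0510 and 0.0325 TPM.

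Secreted proteases and their inhibitors counted 23 of 45. The lysosomal protease CTSD led at 572, 582 and 559 TPM, and CTSB and CTSL had 102 ± 3.77 TPM and 98.6 ± 0.836 TPM (50.3 on coding transcripts). PLAU, the urokinase that activates plasmin, had 92.4 ± 2.45 TPM, and the metalloprotease inhibitors TIMP2 and TIMP1 had 84.3 ± 3.02 TPM and 73.5 ± 5.71 TPM. The metalloproteases themselves were low: MMP2, MMP9, MMP1 and MMP7 had 0.101, 0.108, 0.0607 and 0.0124 TPM, while MMP13 had 4.61 ± 0.296 TPM.

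Ligands and antagonists of the transforming growth factor beta and Wnt families counted 12 of 29. The Wnt antagonist DKK1 led at 64.6, 63.03 and 61.3 TPM, with 32.4 TPM on coding transcripts. FSTL1 had 29.3, 20.05 and 27.1 TPM, TGFB2 had 23.5 ± 1.43 TPM (12.9 on coding transcripts) and the stress-induced GDF15 had 23.5 ± 1.78 TPM. TGFB2 held 69.9% ± 1.67 of the 3 TGFB ligands, TGFB1 19.9% ± 0.895 and TGFB3 10.3% ± 2.18. Of other secreted and tumour-associated genes 24 of 44 were detected. The calcium-binding S100A6 had 1239 ± 23.9 TPM, the galectin LGALS1 459 ± 18.8 TPM, and S100A10 and S100A11 264 ± 6.98 TPM and 258 ± 11.4 TPM. PSG4, one of the pregnancy-specific glycoproteins made by the placenta, stood at 114, 125 and 111 TPM, with its largest transcript PSG4-213 at 26.99 ± 1.92 TPM. Its relative PSG1 had 6.57 ± 0.325 TPM (2.39 on coding transcripts), and genes of this family are close copies between which reads can be split. S100A8 and NTS had no reads.

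Glycolytic enzymes were among the most abundant messages of the cell. GAPDH had 1114, 1119.6 and 1053 TPM, lactate dehydrogenase A (LDHA) 990.1, 966 and 929.7 TPM, enolase 1 (ENO1) 737 ± 26.2 TPM and aldolase A (ALDOA) 588 ± 24.6 TPM. 53.6% of the 31-base words of ALDOA also occur in other genes. These 4 and PKM were separated from each other in every library. In all, 24 of 39 genes of glycolysis and lactate handling were detected.

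At several steps a single isozyme held most of the TPM. HK1 held 61.8% ± 0.465 and HK2 36.2% ± 0.410 of the hexokinases. PFKP, the platelet form, held 65.7% ± 1.93 of the phosphofructokinases, PFKM 23.5% ± 1.62 and PFKL 10.7% ± 0.367. On coding transcripts PFKM held 9.15%, below PFKL at 11.7%. ALDOA held 97.5% ± 0.362 of the aldolases, ENO1 97.3% ± 0.0711 of the enolases and LDHA 70.6% ± 0.531 of the lactate dehydrogenases, with LDHB at 29.1% ± 0.486. Of the liver forms, the glucose transporter SLC2A2 had no reads, and the pyruvate kinase PKLR had 0.00521 TPM. Of the lactate exporters SLC16A3 held 59.6% ± 2.24 and SLC16A1 39.9% ± 2.33.

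Glucose transporters were detected in 7 of 16 cases. SLC2A1, which encodes GLUT1, had 35.6, 33.1 and 28.7 TPM, and SLC2A3, which encodes GLUT3, 20.4, 20.1 and 20.1 TPM. On coding transcripts SLC2A1 fell to 7.004 TPM and lay below SLC2A3 at 14.8 TPM, so which of the pair led depended on the transcripts counted. Glycogen and gluconeogenic enzymes counted 9 of 14. The liver-type glycogen phosphorylase PYGL stood at 91.3 ± 1.39 TPM and held 74.2% ± 0.703 of its family, and pyruvate carboxylase (PC) had 39.9 ± 1.91 TPM (15.2 on coding transcripts). FBP1, which opposes glycolysis in gluconeogenic tissue, had 18.6 ± 1.30 TPM. The mitochondrial PCK2 had 11.8 ± 0.881 TPM and the cytosolic PCK1 0.00458 TPM.

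The pentose phosphate pathway, which makes NADPH and ribose, was detected in 8 of 10 genes. Transketolase (TKT) had 325 ± 18.3 TPM (128 TPM on coding transcripts), TALDO1 74.9 ± 5.35 TPM and PGLS 44.8 ± 1.45 TPM. Of the tricarboxylic acid cycle and pyruvate dehydrogenase genes 34 of 36 were detected, the pair left out being PDHA2 of testis and OGDHL, both without reads. MDH2 had 216 ± 8.92 TPM (104 on coding transcripts), PDHA1 129.9 ± 3.26 TPM (51.2 on coding transcripts), citrate synthase (CS) 117 ± 1.60 TPM and MDH1 103 ± 3.55 TPM. The kinases that inhibit pyruvate dehydrogenase were spread over their family, with PDK3 at 34.3% ± 0.402, PDK1 at 28.97% ± 4.22, PDK2 at 21.1% ± 3.25 and PDK4 at 15.6% ± 1.79 of their summed TPM. On coding transcripts PDK4 held 20.1% and lay above PDK2 at 13.9%.

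Glutamine and aspartate enzymes were detected in 17 of 23 cases. Among the highest were argininosuccinate synthase (ASS1), which lets a cell make its own arginine, at 130.4 ± 8.52 TPM (50.1 on coding transcripts), glutamate dehydrogenase (GLUD1) at 116 ± 2.90 TPM and OAT at 94.97 ± 3.49 TPM. Asparagine synthetase (ASNS) had 87.3, 91.6 and 90.5 TPM. GLUL, which makes glutamine, stood at 18.2 ± 1.42 TPM (6.74 on coding transcripts), and ARG1 had no reads.

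Redox and detoxification genes counted 40 of 55. The iron store ferritin heavy chain (FTH1) was the highest protein-coding message outside the mitochondrial genome at 5122, 5004 and 4876 TPM, although 62.96% of its 31-base words also occur in other genes, copies among which reads may be split. GPX4, the peroxidase that protects membrane lipids, had 523, 507 and 459 TPM, the ferritin light chain (FTL) 491 ± 18.9 TPM and glutathione transferase pi (GSTP1) 370.4 ± 15.1 TPM. The targets of the antioxidant factor NRF2 differed widely. TXNRD1 and NQO1 had 269.6 ± 6.28 TPM and 209 ± 10.4 TPM, whereas AKR1C1, AKR1C2 and AKR1C3 had 1.35, 0.817 and 0.648 TPM and AKR1B10 12.6 ± 0.552 TPM (6.36 on coding transcripts). AKR1C1 had 0.653 TPM on coding transcripts. ALDH1A1 and ALDH3A1, aldehyde dehydrogenases that some lung cancers express strongly, had no reads, and ALDH1A3 had 9.25 ± 0.764 TPM.

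Fatty acid and lipid genes were detected in 33 of 46 cases. The desaturase SCD led at 342, 364 and 342 TPM, fatty acid synthase (FASN) had 90.6, 106 and 105 TPM, ACSL3 83.8 ± 9.57 TPM and acetyl-CoA carboxylase (ACACA) 69.9 ± 5.44 TPM, with 29.7 TPM on coding transcripts. ACSL3 held 42.3% ± 2.68 and ACSL4 35.00% ± 2.53 of the 5 acyl-CoA synthetases of the ACSL group. CPT1A held 69.9% ± 2.99 of the carnitine palmitoyltransferases 1, which are CPT1A, CPT1B and CPT1C. PTGES, which makes prostaglandin E2 from the product of cyclooxygenase, had 60.4 ± 2.77 TPM. The inducible cyclooxygenase PTGS2 had 0.00798 TPM and PTGS1 2.57 ± 0.205 TPM.

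**Figure D5:**
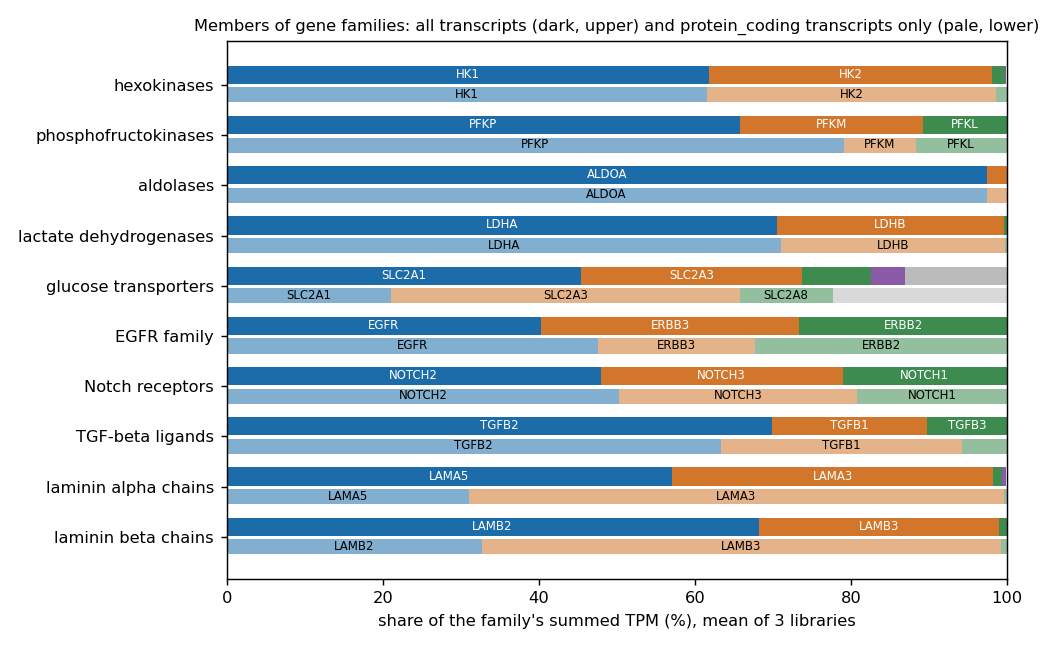
Share (%) of the summed TPM of 10 gene families held by each member, mean of 3 control libraries, over all transcripts (dark, upper bar) and over protein_coding transcripts alone (pale, lower bar); grey is the remaining members. The leading member changes between the bars for glucose transporters and for the laminin alpha and beta chains, and stays for the other 7 families.

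Known long noncoding RNAs were detected in 34 of 47 cases, against 15% of all such genes, in a list made of well-studied RNAs. MALAT1, a nuclear RNA, had 15558, 15559 and 15481 TPM, and it alone took 3.50% of reads. Its longest transcript MALAT1-202, of 8708 bases, had 1685 ± 107 TPM, or 10.8% ± 0.704 of the gene. Much of the rest lay on short transcripts, the largest being MALAT1-214, of 424 bases, at 3585 ± 131 TPM. UCA1, first described in bladder cancer (chr19:15828206-15836326, plus strand), had 1526, 1610.3 and 1500.4 TPM, PVT1 1199, 1279 and 1156 TPM and NEAT1, the scaffold of nuclear paraspeckles, 1025, 1079 and 1082 TPM. These 4 were separated in every library. The long form of NEAT1, of 22743 bases, held 79.1% ± 1.85 of its TPM, at 839.8 ± 25.3 TPM. Another 20.9% ± 1.85 lay on NEAT1-205, of 512 bases. This is a split between annotated transcripts and not a measured ratio of long to short NEAT1. Much of PVT1 lay on transcripts of 130 and 113 bases, at 314 ± 17.2 TPM and 131 ± 15.5 TPM. NKX2-1-AS1, an antisense gene beside NKX2-1, had 0.667 TPM, and without a stated strand setting reads of such pairs cannot be told apart. HOTAIR had no reads, and H19 and MEG3 had 0.684 and 0.631 TPM. NORAD, which binds Pumilio proteins, had 72.99 ± 2.93 TPM, and 56.4% of its 31-base words occur in other genes.

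TRIDENT, the target of the study's other guides, is listed as TRIDDENT in RefSeq and corresponds by its start and end to a transcript of the gene called AC005736.1 in GENCODE 29. It was detected at a low level, with 2.77, 2.63 and 3.31 TPM from a mean of 55.6 estimated reads. Its transcripts of 774, 1394 and 617 bases had 1.54 ± 0.423 TPM, 1.05 ± 0.0845 TPM and 0.312 ± 0.0649 TPM. By level it stood far below UCA1 and near DLX6-AS1 (3.26 TPM) and MIR31HG (2.71 TPM).

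Host genes of small nucleolar RNAs were all detected, 24 of 24. SNHG29 had 1134 ± 45.9 TPM, SNHG6 753 ± 10.9 TPM, SNHG5 631 ± 33.4 TPM and ZFAS1 533 ± 7.02 TPM, and GAS5, named for growth arrest, had 487 ± 14.1 TPM. Structural small RNAs topped the whole table. RN7SL1 and RN7SL2, the RNA of the signal recognition particle, had 73286, 66083 and 72927 TPM and 55237, 58391 and 67626 TPM, and RN7SK, a regulator of transcription elongation, had 64939, 64809 and 68124 TPM. Of their 31-base words 100%, 94.8% and 100% also occur in other genes, so the split between copies is uncertain. The same loci hold further entries, which are not included in these values. AL139099.4, at the RN7SL1 locus, had 24210, 21246 and 24713 TPM. An entry named 7SK, at the RN7SK locus, had 13028, 9326 and 12900 TPM. RPPH1, the RNA of RNase P, had 20207 ± 1404 TPM, and 100% of its 31-base words also occur in other genes. TPM divides the reads of such RNAs by a small length, and these values are not comparable in precision with those of messages.

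The 15 genes with the highest TPM were such short RNAs, MALAT1, MIR663AHG (19345 TPM) and the mitochondrial genes MT-ATP8 (16907 TPM), MT-CO2 (10488 TPM), MT-CO1 (9738 TPM) and MT-ATP6 (9046 TPM). MIR663A was listed at 36968, 30189 and 26432 TPM from a mean of 6449 reads on a hairpin of 93 bases. Of its 31-base words 74.6% also occur in other genes. For MT-CO1, MT-ATP6, MT-CO2 and MT-ATP8 this share was 66.7%, 63.7%, 50.5% and 44.6%. Among nuclear protein-coding genes the top 15 were FTH1, the elongation factor EEF1A1 (3854 ± 32.7 TPM), the actins ACTG1 (2242 ± 100.4 TPM) and ACTB (2215 ± 43.2 TPM), the poly(A)-binding protein PABPC1 (2188 ± 77.5 TPM) and 10 genes of ribosomal proteins, from RPL41 at 3328 ± 11.8 TPM to RPL7 at 1874 ± 27.3 TPM. The 10 highest protein-coding genes held 6.32% of coding TPM and the 100 highest 26.3%.

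Between the 3 libraries the members varied little. Of 419 listed genes with a mean of 10 TPM or more, the median coefficient of variation was 4.98%, and 9 exceeded 20%. The widest spreads were in short RNAs. VTRNA1-3 had 14.1, 27.8 and 54.4 TPM, from only 2, 5 and 9 estimated reads. The telomerase RNA TERC had 185, 387 and 179.9 TPM, from 662, 1528 and 674 estimated reads. Among messages IL15RA had 14.9, 12.05 and 8.43 TPM, GPT2 12.3, 13.3 and 7.69 TPM and JAG2 18.6, 27.4 and 20.3 TPM (7.68 on coding transcripts). The third library was slightly lower over most groups. Of the 36 lists of mainly protein-coding genes, 30 had their lowest summed TPM in replicate 3, whose sum was at the median 95.6% of the mean of the other libraries. Summed TPM of the epithelial genes was 2314, 2357 and 2244, of the integrins 763, 752 and 678, and of the glycolytic genes 5292, 5359 and 5052. The structural small RNAs went the other way, with 235859, 236953 and 263726 TPM. After rescaling to protein-coding genes, replicate 3 was lowest in 22 of the 36 lists, at a median of 98.5%.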

How the data were processed

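Total RNA of the 3 control libraries was quantified by the authors with Salmon 1.4.0 against hg38, per the submitters' processing notes; the index, library type and strand setting are not given in the sources used here. The deposited tables give an estimated count of reads and TPM per transcript, per the file headers, with lengths and effective lengths. No other normalization is recorded. Of 211939 listed transcripts, 95.7% matched GENCODE 29 by identifier and were summed to 56823 genes; the other transcripts, with 1.29% to 1.33% of reads, entered no gene. Groups followed the labels, and the 6 libraries with TRIDENT guides were not used.

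Levels were described with mean and SD, without a test. Detection meant 1 TPM in all 3 libraries. In total 39 lists of 1154 genes were used; KRT20, KRT23, LY6E, MIF, GSTT1, CCAT1, LINC00473 and MIR22HG were not matched and are not analysed here. Lists and members were chosen with earlier results of these data known, and the 19 families after their values were seen. Named genes were the 4 highest of each list, the 15 highest genes, the 15 highest protein-coding genes, the 10 highest long noncoding RNAs, detected family members, defining markers at 0 and a fixed set (EGFR, ERBB2, ERBB3, MET, NKX2-1, SFTPB, SFTPC, NAPSA, CDH1, VIM, EPCAM, TRIDDENT); every other gene named was chosen after its values were seen. Not all genes that the rule allows are printed, and some results are not reported here. Where a symbol had 2 identifiers the higher was used. Words of 31 bases shared with other genes were counted on either strand. Alternatives were other TPM limits, 10 reads, a mean over libraries, protein_coding transcripts only, shares of reads and leaving out each library. Another was rescaling to protein-coding genes, those of the mitochondrial genome included. Python 3.11.15, pandas 2.3.3, numpy 2.4.6 and matplotlib 3.10.9 were used. Depth limits low values: 3 reads are the floor for a value of 0.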

Additional observations from a re-analysis of the deposited data

Results flagged for a closer look

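Reads on listed transcripts outside GENCODE 29 entered no gene and no comparison. They made up 1.33%, 1.30% and 1.29% of estimated reads in the 3 libraries, a mean of 1.30%. The largest of these transcripts, of 891 bases, held 22867, 29196 and 26193 reads, a mean of 26086. Which genes they belong to was not established here. Of the listed genes, 12 lie in the major histocompatibility region, where such alternative transcripts may hold some of their reads. For these genes, unmatched transcripts were compared by exact length with the gene's own transcripts of at least 1500 bases. Transcripts of the same length carried 8.57 TPM for DDR1, against 2.80 TPM on the gene itself, 6.85 for RXRB against 4.47, 3.81 for CFB against 3.94, 2.73 for AGER against 0.885 and 2.61 for SLC44A4 against 0.0523 TPM. If these transcripts belonged to the genes, all 5 levels would rise by more than 1.5 times, and AGER and SLC44A4 would pass 1 TPM on average. On their matched coding transcripts DDR1, RXRB and CFB had 0.992, 0 and 0.199 TPM. A shared length is no proof of identity, and sequences were not compared.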

How the results depend on the processing

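No paired analysis was possible because only the control group was used and its values come from no test. Of the counts detected, 0.5 TPM gave 2 club and mucous, 5 ciliated, 2 neuroendocrine and 20 cytokine genes, against 1, 3, 1 and 12. At 2 TPM there were 1334 long noncoding RNAs and 2 blood and stromal markers. A mean of 1 TPM gave 2 club and mucous and 5 ciliated markers, and rescaling to protein-coding genes 2, 5 and 20 club and mucous, ciliated and cytokine genes. At 10 reads in each library there were 3 club and mucous, 6 ciliated, 4 basal and squamous, 3 neuroendocrine, 10 blood and stromal and 21 cytokine genes. On protein_coding transcripts only, 1 basal and squamous marker, 0 neuroendocrine markers and 11 integrins were detected. Leaving out replicate 3 gave 2 club and mucous markers and leaving out either other library 1; all other counts stayed within 1.5 times when any library was left out. Of reads rather than TPM, protein-coding genes held 79.4%, mitochondrial genes 5.43%, long noncoding RNAs 8.92%, small and structural RNAs 4.00% and pseudogenes 0.971%. As a share of reads, the leading family members held HK1 54.3%, PFKP 59.4%, ALDOA 97.04%, ENO1 96.7%, LDHA 74.2%, SLC16A3 38.1%, SLC2A1 40.6%, PYGL 64.6%, CPT1A 90.6%, ACSL3 23.5%, EGFR 60.5%, PPARG 30.8%, RARG 79.5%, NOTCH2 64.7%, TGFB2 79.1%, LAMA5 36.2% and LAMB2 40.3% of their families. On protein_coding transcripts only, PFKP 79.2%, ENO1 97.6%, SLC2A1 21.1%, PYGL 69.2%, CPT1A 92.1%, EGFR 47.6%, FGFR1 39.01%, PPARG 56.6%, RARG 70.9%, NOTCH2 50.3%, TGFB2 63.3%, LAMA5 31.03% and LAMB2 32.7%. The first member was the same over all transcripts, by reads and on coding transcripts in 12 of 19 families; by reads alone, which are not divided by length, SLC16A1, ACSL4, PDK1 and PPARA led theirs. The cause of these differences was not tested, apart from the transcripts and lengths that each setting counts. Depth limits values that rest on few reads, and their number depends on length as well as TPM. VTRNA1-3 at 32.1 TPM rested on a mean of 5.33 estimated reads, and AXL at 1.01 TPM on 106.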
